A study of Mus musculus with 6 samples.

Results

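The promoters of the mouse Zfp genes were examined in white blood cells of peripheral blood by ATAC-seq, where a transposase tags DNA that is not packed away in closed chromatin. A promoter region was a merged peak on chromosomes 1 to 19 with a peak summit within 1 kb of a transcript start of a protein-coding gene whose symbol begins with Zfp and a digit. This gave 378 regions out of 60298 merged regions, and 302 of them had a peak in all 6 libraries (shared regions), out of 23013 shared regions in all. They belonged to 343 of 410 annotated Zfp genes, and the other 67 genes had no promoter peak in any library. Of the remaining regions, 14060 held a start of another protein-coding gene, and 10252 of those were shared. The 3 control libraries and the 3 libraries of high-altitude de-acclimatization (HADA) came from male C57BL/6j mice, with red blood cells lysed before the assay. HADA mice had lived in a hypobaric chamber that simulated high altitude and were then returned to normal oxygen, and control mice had been kept at normal oxygen throughout. The groups were compared to ask whether chromatin accessibility differs after this exposure. The labels do not say whether replicates were separate animals, so p-values measure the spread between these samples.

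Zfp genes encode zinc finger proteins, in which short loops held by a zinc ion read the DNA sequence. Many carry a KRAB domain, which recruits the corepressor TRIM28 and heterochromatin factors, and these proteins are known for silencing retrotransposons. KRAB zinc finger genes arose by repeated duplication and lie in tandem clusters. Other Zfp proteins have no KRAB domain and serve as activators, RNA-binding proteins or developmental regulators. By the letters of the annotated proteins, 217 of the 410 genes were KRAB-type and 193 were not, with a median of 12 and 7 fingers. In all, 202 genes lay in 26 clusters of at least 4 Zfp genes with gaps of at most 250 kb, and 208 lay outside (lone genes). KRAB-type genes made up 152 of the clustered and 65 of the lone genes.

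Promoter sequences are shown first for the 3 regions with large increases in HADA whose upstream bases lie free of annotated exons. Each run holds 150 bases on the gene's strand, 5′ to 3′, read from the GRCm39 genome, with capitals marking matches to a searched motif. These were ETS CCGGAAG, NRF1 CGCATGCG, YY1 AAGATGGC, SP/KLF GGGCGG, NFY CCAAT, CRE TGACGTCA, BANP/Kaiso CTCGCGAG, E-box CACGTG and ZNF143 ACTACAA, each on both strands. Zfp781a is at chr8:69723582-69723731, plus strand, 7 to 156 bases before a start, and Zfp964 is at chr8:70106962-70107111, plus strand, 18 to 167 bases before a start. Zfp318 is at chr17:46694362-46694511, plus strand, 1 to 150 bases before a start.
Zfp781a: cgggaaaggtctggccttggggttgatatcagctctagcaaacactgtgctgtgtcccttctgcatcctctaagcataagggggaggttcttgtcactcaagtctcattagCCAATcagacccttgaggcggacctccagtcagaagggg
Zfp964: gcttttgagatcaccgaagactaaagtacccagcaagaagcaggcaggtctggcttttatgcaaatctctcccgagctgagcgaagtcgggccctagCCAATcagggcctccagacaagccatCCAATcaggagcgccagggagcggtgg
Zfp318: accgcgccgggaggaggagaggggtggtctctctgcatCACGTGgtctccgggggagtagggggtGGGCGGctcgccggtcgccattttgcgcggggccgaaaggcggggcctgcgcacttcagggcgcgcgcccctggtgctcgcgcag
The first 2 promoters held 2 and 6 CpG dinucleotides in these bases and 1 and 2 CCAAT boxes, while that of Zfp318 held 19 CpG, 1 E-box and 1 SP/KLF motif.

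A further set is shown because its members could hardly be told apart, and it was chosen after the values were seen. The 5 Zfp genes of the second cluster on chromosome 2 (chr2_b, chr2:175116856-175722893) are all KRAB-type and have near-identical promoters. Zfp1009 is at chr2:175116706-175116855, Zfp968 at chr2:175214079-175214228 and Zfp965 at chr2:175311628-175311777, all on the plus strand, and Zfp969 is at chr2:175495473-175495622 and Zfp966 at chr2:175722894-175723043 on the minus strand.
Zfp1009: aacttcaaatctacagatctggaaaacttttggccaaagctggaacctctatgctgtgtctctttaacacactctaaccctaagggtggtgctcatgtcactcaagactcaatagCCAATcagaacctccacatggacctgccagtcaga
Zfp968: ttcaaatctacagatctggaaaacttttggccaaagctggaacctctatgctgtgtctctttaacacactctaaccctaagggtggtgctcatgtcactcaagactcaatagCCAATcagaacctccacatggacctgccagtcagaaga
Zfp965: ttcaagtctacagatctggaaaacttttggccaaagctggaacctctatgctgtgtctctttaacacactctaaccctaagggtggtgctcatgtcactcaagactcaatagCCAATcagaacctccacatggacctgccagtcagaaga
Zfp969: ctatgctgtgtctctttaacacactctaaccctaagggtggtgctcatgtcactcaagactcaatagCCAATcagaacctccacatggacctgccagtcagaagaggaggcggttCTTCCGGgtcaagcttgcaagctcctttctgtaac
Zfp966: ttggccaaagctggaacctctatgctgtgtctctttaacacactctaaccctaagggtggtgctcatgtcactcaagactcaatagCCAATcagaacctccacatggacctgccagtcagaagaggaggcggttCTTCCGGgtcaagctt
In local alignments of the 10 pairs, 102 to 150 columns aligned at 99.3% to 100% identity, and the CCAAT box lay in each run. Part of the Zfp781a promoter aligned with these too, over 107 to 112 columns at 76.6% to 77.6% identity.

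The libraries differed in ways that touch every result. Control lists held 32533 to 39769 peaks on these chromosomes, and HADA lists 42500 to 44102. The lowest background the peak caller used, a guide to how deep a library is, ran from 1.69 to 2.05 in control and from 1.99 to 2.34 in HADA. The summed promoter pileup over background of 8 B cell markers was 191, 115 and 20.8 in control 1 to 3 and 463 to 534 in HADA libraries, and that of 8 neutrophil markers was 344, 259 and 625 in control and 107 to 197 in HADA. On the centred log2 scale used for the Zfp regions below, the shared marker regions differed between HADA and control by a median of 1.96 for B cells (3 regions), −1.50 for neutrophils (5), −0.93 for monocytes (5) and 0.54 for T cells (5), and monocyte markers had a lower median level in every HADA library than in any control library. Control 3 stood apart, with a peak at 3 of 8 B cell markers against at least 7 in each other library, and with the fewest peaks. Of 8 T cell markers, Cd4 and Cd8a had no promoter peak in any library, and the sums ran from 194 to 263 in control and from 294 to 348 in HADA. The sums were 168 to 254 and 215 to 253 for 8 monocyte markers, where Ccr2 had no peak, and 27.9 to 56.2 and 56.0 to 81.5 for 6 NK cell markers, where Ncr1 and Klrb1c had none. For 5 matched erythroid markers the sums were 0 to 14.1 and at most 24.4, with none at Hba-a1, Klf1 and Alas2, for 4 leukocyte markers 410 to 698 and 469 to 600, and for 6 markers of other tissues 18.6 to 34.3 and 38.7 to 53.8, with none at Alb, Myh6, Krt5 and Neurod1. The part of cell composition in the differences below was not tested, and in a mixture of white cells fewer open cells and less opening per cell cannot be told apart.

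Promoters of Zfp genes were open more often than those of other genes, and more often in HADA. A promoter peak was found for 325, 312 and 292 of the 410 Zfp genes in control 1 to 3 and for 335, 333 and 337 in HADA 1 to 3. The share was 75.5% ± 4.05 in control and 81.7% ± 0.488 in HADA (SD, n = 3 each), a difference of 6.18 percentage points, with every HADA library above every control library. For the 20211 other protein-coding genes the shares were 55.2% ± 1.74 and 58.8% ± 0.240, a difference of 3.58 points that also separated the groups. Without control 3 the differences were 4.02 and 2.69 points. KRAB-type genes went from 71.6% ± 5.34 to 79.4% ± 1.06 and other Zfp genes from 80.0% ± 2.61 to 84.3% ± 0.598. Clustered genes went from 78.1% ± 4.98 to 85.0% ± 1.03 and lone genes from 73.1% ± 3.15 to 78.5% ± 0.734. In all 6 libraries, 290 Zfp genes (70.7%) had a peak, against 51.6% of other genes, and 67 (16.3%) had none in any, against 38.4%. These shares were values per library with no test.

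**Figure D1:**
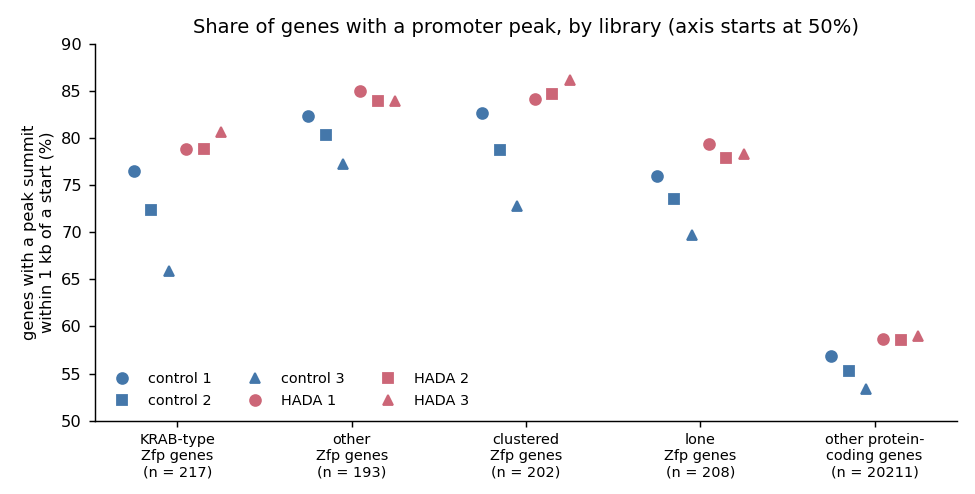
Percent of genes with a peak summit within 1 kb of a transcript start (vertical axis, starting at 50%) in each library, for 4 groups of Zfp genes and for other protein-coding genes. Symbols are single libraries, blue for control and red for HADA. In every group of genes the 3 HADA libraries lie above the 3 control libraries, and control 3 is lowest.

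Some regions had a peak in only part of the libraries. A peak in all 3 HADA and no control library was found at 10 of the 378 regions (2.65%), against 7.15% of all 60298 regions and 3.81% of other protein-coding promoter regions. The reverse was found at 0 regions, against 1.86% of all regions and 0.676% of other promoter regions. Without control 1 the first count was 27, and with an equal number of strongest peaks taken from each list the counts were 8 and 3. The 10 regions were low, with HADA pileups of 12 to 42. The tallest were Zfp286 with 38, 35 and 28, and Zfp219, which encodes a partner of SOX9 in cartilage, with 28, 30 and 42. The others lay at Zfp384, Zfp879, Zfp239, Zfp800, Zfp697, Zfp968, Zfp612 and Zfp1009. Of these genes, Zfp219, Zfp384 and Zfp800 also had another promoter region with a peak in every library. At Zfp219, the caller's local background was at least 2.16 times the library background, while at the other 9 regions it was at the library background in at least 1 library. A library lists a peak at its background only from a pileup of 7 to 9 upwards.

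Control 3 accounted for most regions missing from a single library. Of the 18 Zfp regions with a peak in 5 libraries, 16 lacked it in control 3, and so did 603 of 861 other promoter regions. Counting 0 to 2 control libraries, 48 Zfp regions (12.7%) had a peak in every HADA library, close to the 13.2% of other promoter regions. The KRAB-type Zfp1008 is an example, with 44 and 51 in control 1 and 2, no peak in control 3, and 135, 125 and 114 in HADA. The Zfp605 region had 59 in control 1, no peak in control 2 and 3, and 116, 83 and 88 in HADA libraries, but its summit lay 2109 bp from a neighbouring summit, where the local background was 11.1 to 12.4 times that of the library. A missing peak there does not mean a low pileup. Only 3 regions, at Zfp819, Zfp410 and Zfp652, had a peak in every control and not in every HADA library (0.794%, against 1.96% of other promoter regions).

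Among shared regions, more Zfp promoters were higher in HADA than lower. The summit pileup, the number of fragments stacked at the highest point, was taken as log2 and centred on the median shared region of its library, so a difference is relative to that median. By limma across all 23013 shared regions with Benjamini-Hochberg adjustment at 0.05, 100 of 302 Zfp regions (33.1%) were higher in HADA, against 18.2% of all shared regions and 20.7% of other promoter regions. By the same test 9 (2.98%) were lower, against 24.2% of all and 9.39% of other promoter regions. At an unadjusted limma p under 0.05 the counts were 133 and 18, given without the share of all shared regions, so they make no comparison with it. Every HADA library was above each control library at 153 Zfp regions (50.7%, against 29.2% of all and 35.8% of other promoter regions). Every HADA library was below at 26 (8.61%, against 31.6% and 16.9%). The difference was positive at 226 and negative at 76 regions, with a median of 0.36, against 0.10 for other promoter regions, −0.37 for the 12459 shared regions away from protein-coding starts and −0.041 for all. When libraries were centred on protein-coding promoters instead, which moved the median of all shared regions to −0.18, the counts were 50 higher and 28 lower (16.6% and 9.27%, against 11.6% and 30.6% of all shared regions) and the Zfp median was 0.21, against −0.043 for other promoters. Without control 3 the counts were 106 and 8 (35.1% and 2.65%, against 19.7% and 24.3% of all shared regions), and the medians were 0.28 and 0.14. Leaving out control 2 gave 79 and 15 (26.2% and 4.97%, against 15.6% and 24.3%). Leaving out HADA 1 gave 34 and 7, with 11.3% of Zfp and 8.88% of all shared regions higher. Leaving out HADA 3 gave 26 and 1, with 8.61% and 7.11% higher. Leaving out HADA 2 gave 13 and 1, with 4.30% of Zfp and 4.96% of all shared regions higher, so the higher share of Zfp calls was not seen there, while the Zfp median stayed at 0.35, against 0.098 for other promoters.

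**Figure D2:**
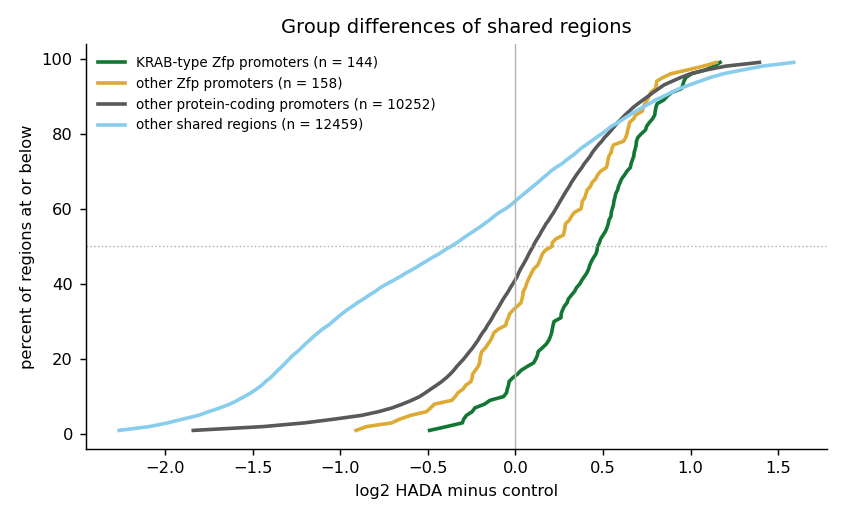
Cumulative percent of shared regions (vertical axis) at or below each log2 difference between HADA and control libraries (horizontal axis), for 4 sets of regions. The curve of KRAB-type Zfp promoters crosses 50% at 0.47, that of other Zfp promoters at 0.21, that of other protein-coding promoters at 0.10 and that of other shared regions at −0.37.

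The levels in single libraries were compared next. The Zfp promoters' median log2 level was 0.60, 0.44 and 0.38 in control 1 to 3 and 0.83, 0.80 and 0.81 in HADA 1 to 3, so the HADA libraries were nearly alike. Other protein-coding promoters lay at 0.85, 0.66 and 0.83 in control and 0.94, 0.93 and 0.91 in HADA. The Zfp median was thus 0.24, 0.22 and 0.45 below that of other promoters in control and 0.11, 0.12 and 0.10 below it in HADA libraries. The median SD over the 3 libraries was 0.24 in control and 0.11 in HADA, for Zfp as well as (0.25 and 0.11) for other promoters. Control 3 was the lowest of the 6 libraries at 146 of 302 Zfp regions (48.3%) and at 29.0% of other promoter regions.

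**Figure D3:**
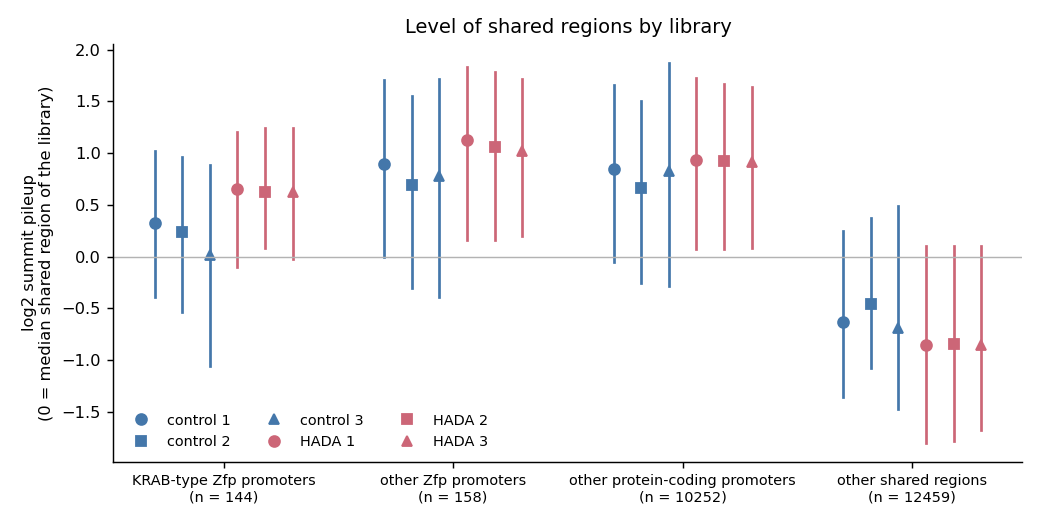
Log2 summit pileup of shared regions relative to the median shared region (vertical axis) in each library, for 4 sets of regions. Symbols are medians and lines span the quartiles, blue for control and red for HADA. The medians of KRAB-type Zfp promoters are 0.01 to 0.33 in control and 0.62 to 0.65 in HADA.

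KRAB-type promoters had the lower median level and the larger median difference. Their median level was 0.33, 0.24 and 0.01 in control and 0.65, 0.63 and 0.62 in HADA, while that of other Zfp promoters was 0.90, 0.69 and 0.78 in control and 1.13, 1.06 and 1.02 in HADA. Of 144 shared KRAB-type regions, 54 were higher (37.5%) and 1 was lower (0.694%), and of 158 others, 46 were higher (29.1%) and 8 were lower (5.06%), against 18.2% higher and 24.2% lower of all shared regions and 20.7% and 9.39% of other promoter regions. The median differences were 0.47 and 0.21, and without control 3 they were 0.33 and 0.21. Among KRAB-type regions the median was 0.46 for the 104 in clusters and 0.48 for the 40 outside. Among other Zfp regions it was 0.33 for the 41 in clusters and 0.10 for the 117 outside. Differences between these classes were not tested.

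The size of the difference went with the height of the promoter. Other shared promoters were split into 3 equal groups by mean level, and Zfp regions were placed by the same limits. In the lowest group 47 of 114 Zfp regions (41.2%) were higher in HADA, against 26.7% of other promoters, and the median differences were 0.56 and 0.32. There 2 Zfp regions were lower (1.75%, against 10.7%). In the middle group 38 of 111 (34.2%, against 25.6%) were higher and 1 was lower (0.901%, against 7.96%), with medians of 0.32 and 0.17. In the highest group 15 of 77 (19.5%, against 9.74%) were higher and 6 were lower (7.79%, near the 9.51% of other promoters), with medians of −0.037 and −0.096. In each of these groups the Zfp median lay above that of other promoters. Promoters poor in CpG (observed over expected under 0.6) gave a median of 0.50 for 81 shared Zfp regions and 0.10 for 2271 other ones, and CpG-rich promoters gave 0.27 for 221 and 0.10 for 7981.

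The largest increase was at Zfp781a (chr8:69723263-69724041), whose CCAAT-bearing promoter is shown above. Its pileup was 38, 20 and 14 in control and 106, 107 and 114 in HADA, and the groups did not overlap. The difference was 1.67 ± 0.30 on the log2 scale (SE, limma adjusted p = 0.00669). Zfp964, a KRAB-type gene of the first cluster on chromosome 8, had 50, 53 and 23 in control and 158, 118 and 148 in HADA, a difference of 1.19 ± 0.27 (SE, limma adjusted p = 0.0112). At the KRAB-type Zfp28 (chr7:6385808-6386907) the pileup was 43, 35 and 24 in control and 106, 117 and 116 in HADA, a difference of 1.13 ± 0.22. At both genes each HADA library exceeded each control library after centring too. At these 3 regions the adjusted p stayed under 0.05 when any 1 library was left out.

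Zfp318, which mature B cells need to make IgD beside IgM from the same transcript, was higher at a CpG-rich promoter (chr17:46694018-46694876). Its pileup was 80, 74 and 38 in control and 214, 186 and 220 in HADA, a difference of 1.12 ± 0.23 (SE, limma adjusted p = 0.00869). The B cell marker sums above were likewise higher in every HADA library and lowest in control 3, and their part in this difference was not tested. When regions were ranked by the deposited fold within each library, the direction at Zfp318 turned, with a difference of −0.046 and a limma adjusted p of 0.825. Zfp2 had 43, 29 and 11 in control and 94, 72 and 90 in HADA, Zfp599 had 39, 26 and 15 against 85, 84 and 93, Zfp82 had 67, 65 and 24 against 186, 148 and 161, and Zfp934 had 49, 36 and 20 against 108, 106 and 112. In all 4 regions control 3 was lowest and the groups did not overlap, and the differences were 1.18, 1.17, 1.16 and 1.09. With HADA 2 left out, their limma adjusted p rose to 0.0947, 0.0619, 0.0675 and 0.0638, and with HADA 3 left out to 0.112, 0.0564, 0.0616 and 0.0552, so these calls were lost. With HADA 1 left out those of Zfp2 and Zfp82 were 0.0921 and 0.0590, and with control 2 left out that of Zfp2 was 0.0501. The call at Zfp2 was also lost when libraries were centred on protein-coding promoters and by fold ranks, at limma adjusted p of 0.0700 and 0.0593, and with repeated summits left out and libraries centred anew, at 0.0532.

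**Figure D4:**
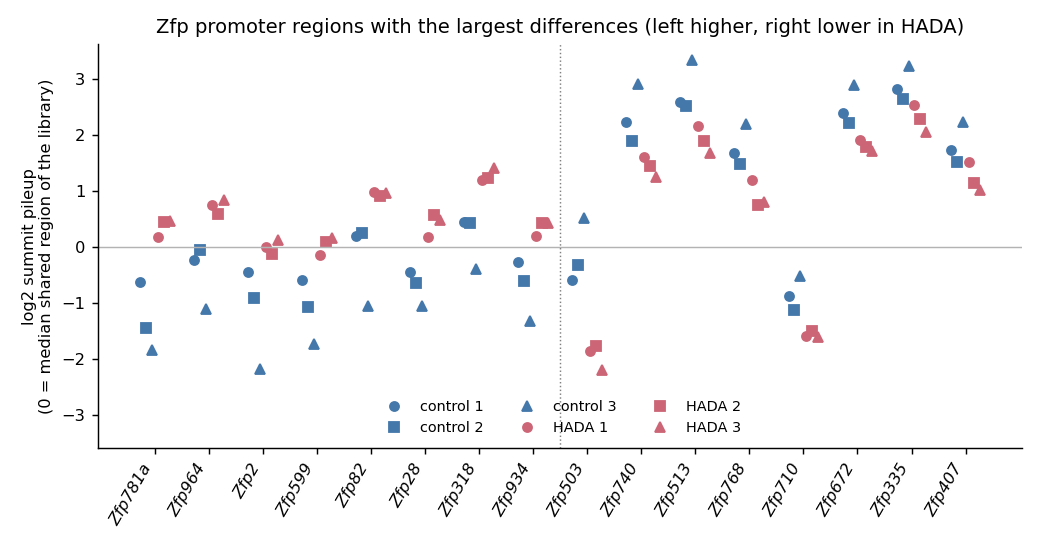
Log2 summit pileup relative to the median shared region (vertical axis) in the 6 libraries for the 8 Zfp regions with the largest increase and the 8 with the largest decrease in HADA (horizontal axis). Symbols are single libraries. In the regions on the left control 3 is the lowest library, and in those on the right it is the highest.

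Of the 9 lower regions, 8 belonged to genes without the KRAB letter pattern, and 7 had a pileup above 100 in every library. The largest decrease was at the low region of Zfp503, a developmental regulator of the forebrain, with 39, 44 and 71 in control and 26, 23 and 18 in HADA. Its difference was −1.81 ± 0.31 (SE, limma adjusted p = 0.00641), and control 3 was highest. Zfp740 (chr15:102111328-102112700) had 277, 204 and 377 in control and 287, 215 and 197 in HADA, so the pileups overlapped and the difference of −0.91 ± 0.24 lay in the level relative to the library median. Zfp513 had 353, 316 and 508 against 420, 292 and 265, a difference of −0.91 ± 0.23. Zfp335, needed for the maturation of naive T cells, had 416, 343 and 471 against 542, 385 and 342, a difference of −0.61 ± 0.19 (SE, limma adjusted p = 0.0309). Zfp768, Zfp710, Zfp672 and Zfp407 gave −0.87, −0.73, −0.70 and −0.60, and the ninth was the KRAB-type Zfp963 with −0.55. With HADA 2 or HADA 3 left out, the limma adjusted p of the 7 named regions other than Zfp503 rose to 0.0536 to 0.164, so these calls were lost, and with control 1 left out so were those of Zfp335, Zfp407 and Zfp710, at 0.0518, 0.0676 and 0.0581. Zfp407 and Zfp710 also lost the call without control 3, at 0.0573 and 0.0832, and Zfp710 without HADA 1, at 0.101. Limma without the trend ended the calls of Zfp335 and Zfp407, at 0.0533 and 0.0722. Divided by the library background instead of centred, only 1 Zfp region was lower (0.331%) and 174 were higher (57.6%), against 16.8% lower and 33.1% higher of all shared regions. Of the 8 named regions, Zfp503 kept an adjusted p under 0.05 by limma in that setting, at 0.000151. With ranks of the deposited fold its call was lost, with a difference of −0.47 and a limma adjusted p of 0.268, and so were those of Zfp710, Zfp768, Zfp672 and Zfp407, at 0.272, 0.224, 0.669 and 0.0562. The summed neutrophil marker level, highest in control 3, ran the same way as these regions, and its part was not tested.

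Across the clusters the direction was largely shared. Clusters are named by chromosome, with letters in order along it. Of 25 clusters with a shared region, 21 had a median difference above 0, and of the 19 with at least 3 shared regions, 16 had a median above the 0.10 of other promoters. Clustered regions had a median of 0.42 (n = 145) and lone regions one of 0.26 (n = 157), and without control 3 these were 0.31 and 0.22. Of the clustered regions 50 were higher (34.5%) and 2 were lower (1.38%), and of the lone ones 50 were higher (31.8%) and 7 were lower (4.46%), against 18.2% and 24.2% of all shared regions and 20.7% and 9.39% of other promoters. On the 11 chromosomes with at least 10 shared regions, the median ran from 0.11 on chromosome 11 to 0.56 on chromosome 15. On chromosomes 18 and 19, with 8 and 3 shared regions, it was −0.12 and −0.20.

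The clusters differed in how many genes had a promoter peak. In 7 clusters every gene had a peak in all 6 libraries. Among these was chr13_b (chr13:67186660-67975804), with 23 genes, of which 20 were KRAB-type, a median difference of 0.43 and 7 of 24 shared regions higher. The 12 genes of chr7_j, which spans 653 kb and holds 6 KRAB-type genes, were also all open, with 2 of 11 shared regions higher and 1 lower. Over all shared regions 18.2% were higher, so the count in chr7_j was near the background. In contrast, of the 10 KRAB-type genes of chr4_b (chr4:147056433-147932882), 2 had a peak in all libraries and 6 had none in any. Of its 4 promoter regions 2 had summit bases repeated in the genome, with up to 76 copies. Whether reads could be placed at genes without a peak was not tested. In the 12-gene chr7_e 4 genes had a peak in all libraries and 4 in none. Of the 67 genes with no peak, 17 were among the 32 Zfp genes of chromosome 4, 10 among the 35 of chromosome 2 and 10 among the 96 of chromosome 7. Of KRAB-type genes 18.4% had no peak, and of other Zfp genes 14.0%.

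The cluster with the most genes on chromosome 7, chr7_g (chr7:29467960-29869215), had 15 genes, and its promoters included those of Zfp82 and Zfp30. All 15 had a peak in control 1 and 2 and in each HADA library, and 12 did in control 3. Of 12 shared regions 7 were higher and none was lower, with a median difference of 0.49. The chr17_a cluster, with 18 KRAB-type genes, had 5 higher and none lower of 13 shared regions, with a median of 0.53, and chr17_b had 3 of 12 higher, with a median of 0.56. Over all 302 Zfp regions 33.1% were higher, and over other promoter regions 20.7%, so the count in chr17_b was near that of other promoters. The chr8_a cluster stood at the other end, with a median of −0.29 over 6 shared regions. It held the very tall promoters of Zfp869 (640, 561 and 815 in control, 965, 713 and 678 in HADA) and Zfp868 (583, 505 and 712 in control, 890, 693 and 713 in HADA) beside the rising Zfp964. Relative to the library median the difference was −0.42 at Zfp869 and −0.29 at Zfp868, with limma adjusted p of 0.117 and 0.227.

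**Figure D5:**
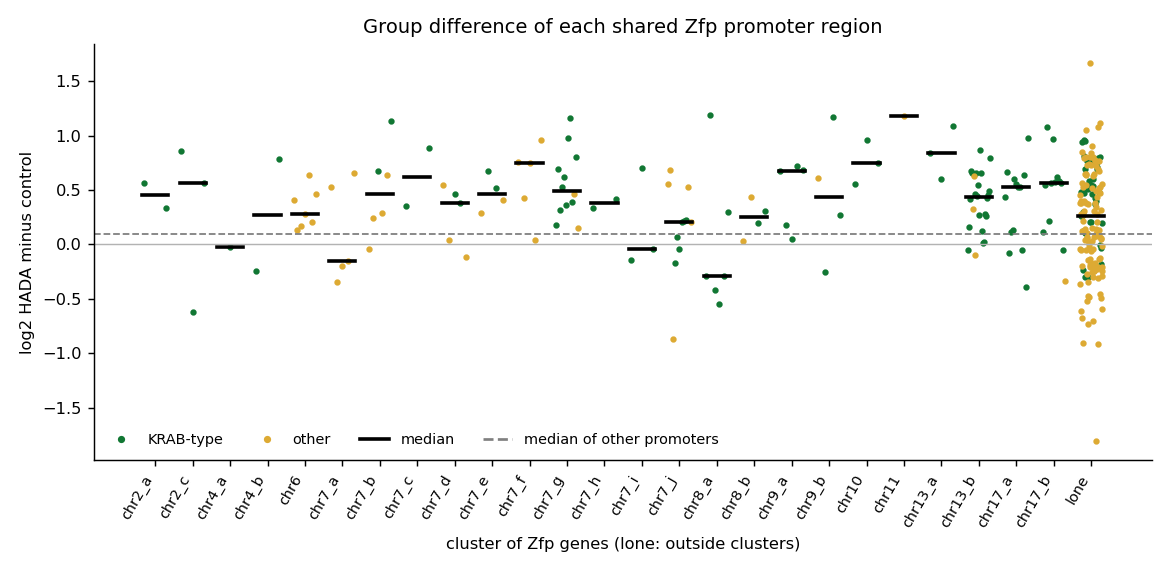
Log2 difference between HADA and control libraries (vertical axis) for each shared Zfp promoter region, by cluster and for lone genes (horizontal axis). Green points are KRAB-type, yellow points are other genes, bars are medians and the dashed line is the median of other protein-coding promoters, 0.10. The median is above 0 in 21 of 25 clusters.

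In chr2_b, the near-identical promoters shown above were listed in all 3 HADA libraries for 5 of 5 genes, in control 1 for 3 and in control 2 and 3 for none. The pileups were low, at 17, 23 and 23 in HADA libraries for Zfp965, 15, 15 and 19 for Zfp969 and 18, 20 and 22 for Zfp966, and in control 1 they were 12, 11 and 17. The 50 bases at their summits occurred 3 to 13 times in the genome, so a read from one copy can be placed at another and the 5 regions are not separate measurements. Repeated summits were found at 31 of 378 Zfp regions (8.20%) against 2.51% of other promoter regions, and at 14 of the 302 shared ones. The highest number was 1421 copies, at a second region of Zfp874a with a peak in 1 library. With repeated summits left out and the centring of all shared regions kept, 98 of 288 Zfp regions were higher and 9 were lower (34.0% and 3.1%, against 20.2% and 20.6% of all regions kept). With the libraries also centred anew on the remaining regions, 75 were higher and 16 were lower.

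Of the Zfp genes, 34 had more than 1 promoter region, and some had a called region beside one that did not pass the test. Zfp638, whose product silences unintegrated retroviral DNA, was higher at chr6:83843902-83845284, with 100, 85 and 53 in control and 274, 245 and 225 in HADA (difference 1.05 ± 0.19, limma adjusted p = 0.00678). At its other start (chr6:83891031-83892061) the pileup was 251, 192 and 239 in control and 383, 308 and 331 in HADA, a difference of −0.055 ± 0.15 with an adjusted p of 0.780 by limma. Zfp395 likewise gave 0.72 ± 0.15 at one region, with its call lost by fold ranks (limma adjusted p = 0.476), and 0.14 ± 0.23 at the other. Zfp740 was lower at the region given above, while its second region (chr15:102116237-102117069) gave 53 and 38 for control 1 and 2, no peak for control 3, and 153, 110 and 106 for HADA. Zfp219 and Zfp384 each had a HADA-only region beside a tall shared one, at 204, 191 and 129 in control and 421, 332 and 376 in HADA for Zfp219 (difference 0.49 ± 0.15, with its call lost when centred on protein-coding promoters and by fold ranks) and at 331, 266 and 381 against 490, 365 and 404 for Zfp384 (difference −0.27 ± 0.18). Zfp800 likewise had a shared region beside its HADA-only one, at 141, 120 and 110 in control and 233, 182 and 182 in HADA (difference 0.042 ± 0.13). Differences between regions of the same gene were not tested. These genes were singled out after their values were seen.

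The function lists show how the promoters of well-known members behaved. The 3 CCCH proteins that bind AU-rich mRNA and speed its decay were open in every library. None passed the test, against 18.2% higher and 24.2% lower of all shared regions. Zfp36 had 370, 345 and 516 in control and 545, 394 and 396 in HADA, a difference of −0.52 ± 0.21 with an adjusted p of 0.0690 by limma, and Zfp36l1 and Zfp36l2 gave −0.19 and 0.046. Centred on protein-coding promoters, Zfp36 was lower, at a limma adjusted p of 0.0276, and so were Zfp263 and Zfp445, given below, at 0.0481 and 0.0491. Divided by the library background, Zfp281 and Zfp568, also given below, were higher, at 0.0110 and 0.0191. Of 7 genes with lymphocyte roles, 4 had a shared region, and Zfp318 was higher and Zfp335 lower. These counts were near the 18.2% higher and 24.2% lower of all shared regions. Zfp91, a ubiquitin ligase, and Zfp609 gave −0.20 and −0.057. Zfp521, a regulator of blood progenitors, had a peak only in HADA 1, and Zfp683, known as Hobit in resident lymphocytes, and Zfp831 had none.

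Among 8 genes for control of retrotransposons or imprints, 6 had a shared region, of which 2 were higher and none was lower, a share like the 33.1% higher of all Zfp regions. Zfp932 had 42, 53 and 27 in control and 113, 98 and 111 in HADA, a difference of 0.81 ± 0.23 (SE, limma adjusted p = 0.0221). Zfp429 had 71, 65 and 41 against 147, 144 and 134, a difference of 0.66 ± 0.19 (SE, limma adjusted p = 0.0241). Both calls were lost when libraries were centred on protein-coding promoters, at limma adjusted p of 0.0630 and 0.0653, and with ranks of the fold that of Zfp932 was 0.105. Zfp568, which represses a placental Igf2 promoter, gave 0.37 with an adjusted p of 0.0658 by limma, and Zfp708, the provirus silencer Zfp809 and the imprint regulator Zfp445 gave 0.16, −0.25 and −0.25. Zfp57, which guards imprints in the embryo, and Zfp992 had no peak. All 7 housekeeping regulators had shared regions, and none passed the test at its tallest one, against 18.2% higher and 24.2% lower of all shared regions. A second region of Zfp148 was higher by 0.77 (limma adjusted p = 0.0248, or 0.0600 centred on protein-coding promoters and 0.148 by fold ranks). Zfp143 had 322, 290 and 385 in control and 571, 483 and 503 in HADA, a difference of 0.0075 ± 0.17, and the other 6, Zfp207, Zfp148, Zfp281, Zfp384, Zfp263 and Zfp131, lay between −0.31 and 0.38. Of 8 developmental or pluripotency genes, 5 had no peak (Zfp42, known as Rex1, Zfp423, Zfp536, Zfp804a and Zfp648). Zfp503 was lower as given above, Zfp703 gave 0.012, and Zfp385c lacked a peak in control 2.

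At the extremes of height, the 5 tallest shared regions were Zfp869, Zfp696, Zfp868, Zfp438 and Zfp687, with mean log2 levels of 3.17 to 3.61 in control and 2.85 to 3.19 in HADA. Their differences were −0.20 to −0.49 and none passed the test. When libraries were centred on protein-coding promoters, Zfp696, Zfp438 and Zfp869 were lower, at limma adjusted p of 0.0170, 0.0307 and 0.0374, and by fold ranks Zfp696 was lower, at 0.0361. The 5 lowest were regions of Zfp217, Zfp365, Zfp410, Zfp987 and Zfp30, with pileups of 8 to 35. Of these Zfp365 had 12, 13 and 10 in control and 31, 31 and 33 in HADA, a difference of 0.81 ± 0.23 (SE, limma adjusted p = 0.0240), and the adjusted p was 0.0605 when libraries were centred on protein-coding promoters. Zfp30, with a difference of 0.69 and a limma adjusted p of 0.0607, was higher by fold ranks, at 0.0222, and when divided by the library background, at 0.00378. The members closest to the distance limit were a region of Zfp819 with its nearest summit at 928 bp and one of Zfp568 at 939 bp, with mean pileups of 22.8 and 16 over the libraries with a peak. Just outside lay regions of Zfp710 at 1013 bp, Zfp950 at 1056 bp and Zfp704 at 1068 bp, with 67.7, 28.7 and 28.2.

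The sequence around the highest summit set KRAB-type promoters apart from the others. Shared Zfp regions had a median GC content of 60.7% and shared other promoter regions 64.1%, with 55.8% in KRAB-type and 65.6% in other Zfp regions. The median CpG observed over expected was 0.635 in KRAB-type, 0.804 in other Zfp and 0.797 in other promoter regions. Zfp regions had a median width of 1014 bp against 1133 bp, and their summit lay 40.5 bp downstream of a start in the median, against 15 bp. Within 150 bases of the summit the ETS motif was found in 26.5% of shared Zfp regions and 17.9% of other promoter regions, in 27.1% of KRAB-type and 25.9% of other Zfp regions. The YY1 motif was found in 7.95% and 4.73%. The SP/KLF motif was found in 56.3% and 64.1%, and less in KRAB-type (45.8%) than in other Zfp regions (65.8%).

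The CCAAT box, seen in the printed Zfp781a, Zfp964 and chr2_b promoters, was found in 37.5% of KRAB-type, 19.6% of other Zfp and 30.6% of other promoter regions. The longer word CCAATCAG, which these printed promoters share and which was chosen after they were seen, was found in 24 of 144 KRAB-type (16.7%), 6 of 158 other Zfp and 4.13% of other promoter regions. NRF1 was found in 2.98% and 3.06% of shared Zfp and other promoter regions, CRE in 3.64% and 2.72%, BANP/Kaiso in 0.331% and 1.74%, E-box in 6.95% and 9.54% and ZNF143 in 2.65% and 3.01%. The median difference was higher in Zfp regions with than without the motif for CCAAT (0.44 and 0.29), ETS (0.37 and 0.35) and ZNF143 (0.54 and 0.35, with the motif in 8 regions). It was lower with the motif for NRF1 (−0.051 and 0.37, in 9 regions), YY1 (0.16 and 0.38), SP/KLF (0.31 and 0.40), E-box (0.27 and 0.37), CRE (0.33 and 0.37) and BANP/Kaiso (−0.34 and 0.37, in 1 region). A match is a description of the sequence, and none of these shares was tested.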

How the data were processed

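Peak lists of 6 libraries were analysed, 3 control and 3 HADA, grouped by the labels. Per the submitters' processing notes and the study's methods, the authors used Trimmomatic for trimming, Bowtie2 for alignment to GRCm39, Picard for duplicates and MACS2 for peaks, each library by itself. The MACS2 options and any Tn5 shift were not given in the sources used here. Per the labels the cells were white blood cells, while the study's text also names mononuclear cells. The deposited lists give a score, a fold enrichment, a −log10 p-value and a −log10 q-value per peak. The whole-number summit pileup was solved from the deposited fold and −log10 p-value, for 100% of peaks. Total read depth is unknown.

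Peaks sharing 1 bp were merged and matched to GENCODE M39 starts with Python 3.11.15. Log2 pileups were compared with limma 3.58.1 (R 4.3.3, trend on the mean level), checked on simulated pileups. The KRAB class was set by the letters L, Y or F, any 2, V, M, any 1, E or D in any protein translated from the GENCODE annotation, in place of the RefSeq proteins first planned.

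Regions named were the 8 with the largest called difference in each direction, those with peaks in 1 group only, the 5 tallest and 5 lowest, the genes of the function lists and, for a cluster, its range or up to 3 tallest regions. Zfp638, Zfp395, Zfp1008, Zfp605, Zfp963, the second regions of Zfp740 and Zfp148, and a few others given as examples fall outside this rule and were chosen after their values were seen. Members and lists were chosen with earlier results of these data known. Other scalings, filters, distances and left-out libraries were tried as alternatives. The bases of 1 named promoter are not reported here.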

Additional observations from a re-analysis of the deposited data

How the results depend on the processing

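The number of higher and lower Zfp regions depended on the scaling. Ranks of the deposited fold gave 47 higher and 5 lower (15.6% and 1.66%, against 7.75% and 6.10% of all shared regions). Division by the library background gave 174 and 1 with a median difference of 0.75 (57.6% and 0.331%, against 33.1% and 16.8%). Centring on protein-coding promoters gave 50 and 28 with a median of 0.21 (16.6% and 9.27%, against 11.6% and 30.6%). Regions with a summit sequence found once, with libraries centred anew on them, gave 75 and 16, with a median of 0.27. With the centring of all shared regions kept, an alternative chosen after seeing the data, they gave 98 and 9, with a median of 0.34 (34.0% and 3.1%, against 20.2% and 20.6%). Leaving out each library in turn gave 13 to 107 higher, 1 to 15 lower, and medians of 0.28 to 0.44, with control 2 left out giving 79 and 15. These were 4.30% to 35.4% higher and 0.331% to 4.97% lower, against 4.96% to 20.2% and 11.1% to 24.3% of all shared regions. Over left-out libraries, regions with a peak in every HADA and no control library numbered 10 to 27 (27 without control 1), and the reverse 0 or 1. When every list was cut to an equal number of its strongest peaks the counts were 8 and 3, and with a −log10 q-value of at least 5 they were 13 and 0. Limma without trend gave 89 and 6 (29.5% and 1.99%, against 17.5% and 23.4% of all shared regions). A mean pileup of at least 20 gave 98 and 11 (32.6% and 3.65%, against 19.4% and 23.5%). Summits within 500 bp or 3 kb gave 99 and 8 or 102 and 10 (33.1% and 2.68% or 32.4% and 3.17%, against 18.2% and 24.2%). Over the 16 regions named for their difference and their alternatives, 156 results kept direction and call, 51 lost the call and 1 reversed, Zfp318 with a rank difference of −0.046. The causes were not tested.

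With the replicate number as a replicate block, 67 regions were higher and 5 were lower (22.2% and 1.66%, against 13.5% and 23.2% of all shared regions). The limma adjusted p of Zfp335, Zfp407 and Zfp710 was then 0.0534, 0.0561 and 0.0779. The numbers were not taken as pairs, since the deviations of same-numbered libraries correlated at −0.10, 0.09 and −0.38 and 0 libraries correlated best with their own number.

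The difference in the share of genes with a peak was 4.02 to 8.05 points over left-out libraries and 5.53 to 7.56 points over the other settings. The clustered minus lone median was 0.16, and 0.14 to 0.22 with other gaps and unrepeated summits. The weakest callable pileup, 7 to 9, limits what a missing peak shows.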

Other observations

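Of the shared Zfp regions, 35 also held a start of another protein-coding gene, such as Sh3bp5l beside Zfp672, Armc5 beside Zfp696 and Naa60 beside Zfp597. These regions had a median pileup of 167 and a median difference of 0.10, and the 267 others had 109 and 0.38. Of the 35 regions 11 were higher and 2 were lower, and of the 267 others 89 were higher and 7 were lower. The shares called higher were thus nearly alike, against 18.2% higher and 24.2% lower of all shared regions. Which gene a region with starts of several genes serves was not tested. In 4 regions 2 or more Zfp genes shared the peak, as Zfp646 and Zfp668 did.

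Inside the Zfp clusters, which span 10.9 Mb in all, peaks away from starts were about as dense as elsewhere. Control libraries had 0.900 to 1.20 such peaks per 100 kb inside clusters and 0.738 to 0.970 elsewhere, and HADA libraries had 0.992 to 1.08 inside and 1.03 to 1.09 elsewhere. In each control library the density was higher inside, and in HADA 2 and 3 it was slightly lower inside.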
